A study of Mus musculus with 11 samples.

Results

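The genes Prox1, C1ql2, C1ql3, Calb1, Plk5, Dsp, Trpc6 and Npnt, which mark dentate granule cells, were followed through RNA-seq of mouse hippocampus. They were chosen by symbol, as 8 of the 23645 genes found in both count tables, and all 8 passed the filter on low counts in every comparison (at least 1 CPM, a count scaled by its library total, in at least 1 library). The mice were C57BL/6N at postnatal day 32, and the labels call the tissue adult hippocampus, dissected from 1 hemisphere. The study deleted the non-coding 1b interval of Scn1a, which encodes the sodium channel Nav1.1, with Cas9 in oocytes and bred the mutation as a single line, so every mutant carries the same deletion on both alleles (1b-/-, labelled KO) or on 1 allele (1b+/-, labelled HT). The libraries were made in 2 sequencing rounds. Short single-end reads came from 2 WT and 2 1b-/- mice (the homozygous round), and longer paired-end reads from 3 WT and 4 1b+/- mice (the heterozygous round). Mutant and WT mice were compared inside a round, and only the test of the difference between mutants used both rounds. Both WT mice of the homozygous round were female and its 1b-/- mice were 1 male (replicate 1) and 1 female (replicate 2), while the heterozygous round was male apart from 1b+/- replicate 4. Replicates were numbered in the order of the samples, and no label says that animals were pooled.

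Granule cells are the principal neurons of the dentate gyrus. They receive the main cortical input of the hippocampus and send their axons, the mossy fibers, to hilar mossy cells and to CA3 pyramidal cells. Prox1 is the homeobox transcription factor that sets and keeps granule cell identity, and some GABAergic interneurons also use it. C1ql2 and C1ql3 are secreted C1q-like proteins found at mossy fiber synapses, Calb1 is the calcium buffer calbindin, and Dsp is desmoplakin, a plaque protein of desmosomes. Trpc6 is a cation channel opened by diacylglycerol, Npnt is nephronectin, an integrin ligand of the extracellular matrix, and Plk5 belongs to the polo-like kinase family. Calb1 is not restricted to granule cells: CA1 pyramidal cells and striatal spiny neurons also contain it.

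In mm9, the build to which the reads were aligned, C1ql2 lies at chr1:122237159-122239748 on the plus strand and Prox1 at chr1:191945660-191994559 on the minus strand. C1ql3 lies at chr2:12925084-12933374 (minus), Npnt at chr3:132544709-132613255 (minus) and Calb1 at chr4:15808411-15835211 (plus). Trpc6 lies at chr9:8544432-8680565, Plk5 at chr10:79819204-79828234 and Dsp at chr13:38243197-38290446, all on the plus strand. Antisense genes overlap 3 of them (the lincRNA Gm17566 at Prox1, the coding gene Gm10129 at Dsp and a U6 snRNA at Npnt). The libraries were stranded, but whether the counting used the strand is not given in the sources used here, and reads of these pairs may not be separated. C1ql2 and C1ql3 are paralogs, and how the counting treated reads shared between them is also not named.

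Promoters are shown for the 4 genes whose change differed between the mutants by test, C1ql2, C1ql3, Prox1 and Dsp. Each window runs from 250 bases before the RefSeq start to 50 after it, on the gene's own strand, taken from RefSeq on GRCm38.p6, a later build than the counts. Capitals mark the E-box CANNTG, the class of site that basic helix-loop-helix factors bind, the GC box GGGCGG or its reverse complement CCGCCC, and the TATA motif TATAAA or its reverse complement TTTATA. Positions count from 1 at the RefSeq start, with -1 just before it.
C1ql2, chr1:120340332-120340631, plus strand: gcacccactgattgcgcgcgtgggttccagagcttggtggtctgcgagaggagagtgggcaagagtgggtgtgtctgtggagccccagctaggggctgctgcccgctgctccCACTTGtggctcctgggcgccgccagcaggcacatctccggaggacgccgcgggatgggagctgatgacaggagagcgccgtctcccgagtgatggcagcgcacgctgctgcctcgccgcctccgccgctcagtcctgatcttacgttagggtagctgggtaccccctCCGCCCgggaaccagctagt
C1ql3, chr2:13010815-13011114, minus strand: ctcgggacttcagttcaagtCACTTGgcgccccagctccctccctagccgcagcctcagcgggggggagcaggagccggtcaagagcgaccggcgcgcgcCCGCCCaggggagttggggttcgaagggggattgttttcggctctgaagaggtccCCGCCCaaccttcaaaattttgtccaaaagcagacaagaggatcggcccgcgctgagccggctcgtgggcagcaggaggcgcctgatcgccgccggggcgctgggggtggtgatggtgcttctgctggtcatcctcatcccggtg
Prox1, chr1:190170778-190171077, minus strand: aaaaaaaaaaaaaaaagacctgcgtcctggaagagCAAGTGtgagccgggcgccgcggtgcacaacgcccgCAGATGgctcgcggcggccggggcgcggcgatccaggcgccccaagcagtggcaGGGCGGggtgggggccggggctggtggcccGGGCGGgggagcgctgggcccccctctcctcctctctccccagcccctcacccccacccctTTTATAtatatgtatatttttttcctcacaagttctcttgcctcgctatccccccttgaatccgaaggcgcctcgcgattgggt
Dsp, chr13:38151044-38151343, plus strand: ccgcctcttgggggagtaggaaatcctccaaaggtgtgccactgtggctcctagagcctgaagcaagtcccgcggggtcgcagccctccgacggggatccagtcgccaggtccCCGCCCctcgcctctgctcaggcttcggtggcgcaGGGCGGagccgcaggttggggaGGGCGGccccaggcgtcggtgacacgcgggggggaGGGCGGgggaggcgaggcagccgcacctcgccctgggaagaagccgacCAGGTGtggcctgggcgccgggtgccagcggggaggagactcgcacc
All 4 windows held at least 1 E-box, at -138 in C1ql2, -230 in C1ql3, -215 and -179 in Prox1 and 4 in Dsp. E-boxes occurred in 72.3% of 32851 RefSeq promoter windows of this length, so their presence does not set these genes apart. The Prox1 site at -179 reads CAGATG, a spelling that with its reverse complement CATCTG occurred in 17.2% of windows. GC boxes, present in 35.7% of windows, were found in each of the 4, once in C1ql2, 2 times in C1ql3 and Prox1 and 4 times in Dsp. The TATA motif, present in 13.6% of windows, was found only in Prox1 among the 4, at -34 and in the reverse orientation. The cyclic AMP response core TGACG or CGTCA, present in 20.8%, was in none of these 4 windows. Their GC content ran from 64.3% in Prox1 to 73.0% in Dsp, where the median window had 52.7%. Promoter entries matched 7 of the 8 genes, not Calb1. Prox1 has a second RefSeq start, whose window held no E-box.

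Library totals ran from 20667122 to 36145161 counts. Scn1a, the targeted gene, was at 134 and 173 CPM in the WT and 26.3 and 16.7 CPM in the 1b-/- libraries (log2 fold change -2.83 ± 0.27 SE, adjusted p = 0.0211, edgeR quasi-likelihood test), and at 113 to 171 CPM in WT and 83.4 to 119 CPM in 1b+/- libraries of the other round (-0.47 ± 0.15, adjusted p = 0.303). The Scn1a call in 1b-/- mice was lost without WT replicate 1 or 2 (adjusted p = 0.101 and 0.0601). Markers of tissue outside the hippocampus separated the WT libraries of the homozygous round from the other 9. The summed level of 12 striatal spiny neuron genes (Drd2, Adora2a, Penk and others) was 8115 and 3356 CPM there, against 206 to 425 CPM in every other library. All 12 had negative log2 fold changes in 1b-/- mice and 10 were called lower, where 1.52% of all genes were. No striatal marker was at 0 counts in any library, and each library held some signal of the list. The 5 basal forebrain cholinergic genes summed to 91.5 and 40.0 CPM in the same WT libraries and to 1.71 to 11.6 CPM elsewhere. In 1b-/- mice 4 of the 5 were called lower, against the same 1.52% of all genes. In the heterozygous round Lhx8 was at 0 counts in 4 libraries and Gbx1 in 3, and Gbx1 in 1 library of the homozygous round. The sums of 8 CA1 and 8 CA3 pyramidal genes were, by contrast, lowest in these WT libraries (376 to 465 CPM for CA1 and 374 to 434 CPM for CA3, against at least 796 and 551 CPM elsewhere). The choroid plexus sum ran from 51.9 to 3368 CPM within these WT mice and from 59.8 to 13260 CPM within the 1b-/- mice. Within the heterozygous round the striatal sum was 246 to 425 CPM in WT and 206 to 245 CPM in 1b+/- libraries. Of the 12 striatal genes 11 had negative log2 fold changes in 1b+/- mice. At an unadjusted p under 0.05 (quasi-likelihood test) 7 were lower, where 5.95% of all genes were, and none was called. The part of these markers in the results on granule cell genes was not tested in either round. In whole tissue, fewer cells of a type and less RNA per cell cannot be told apart. Every change in 1b-/- mice below is relative to the 2 WT libraries of the homozygous round.

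The 8 genes differed widely in level. Among WT mice sequenced with the 1b+/- mice, RPKM, which is CPM per kilobase of exon, were highest for C1ql3 (43.3 ± 6.12 SD, n = 3) and Calb1 (33.6 ± 4.83), followed by C1ql2 (18.1 ± 1.22) and Prox1 (12.95 ± 2.29). Npnt (5.89 ± 0.71), Plk5 (4.81 ± 1.19), Trpc6 (4.48 ± 0.09) and Dsp (3.17 ± 1.17) followed at lower RPKM. C1ql3 and Calb1 differed by less than the sum of their SDs, as did Npnt, Plk5 and Trpc6 among neighbours. Dsp has the largest total exon length of the 8 (9625 bases), so a CPM close to those of C1ql2 and Npnt gave it the lowest RPKM.

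Across the 4 groups, with CPM scaled over all 11 libraries, 6 of the 8 genes had their lowest mean in the WT mice of the homozygous round, and Calb1 and Plk5 did not. The share of all genes with their lowest mean in that group, or without overlap between these groups, was not computed. This count and the overlaps below therefore describe the 8 genes and do not set them apart from other genes. Mean C1ql2 was 73.7 CPM in 1b-/-, 42.0 in 1b+/-, 36.1 in WT of the heterozygous round and 1.79 in WT of the homozygous round, a span of 41.3 times, and only the 1b+/- and the heterozygous-round WT libraries overlapped. Mean Dsp was 45.2 CPM in 1b+/-, 39.0 in 1b-/- and 30.6 in heterozygous-round WT, neighbours that overlapped, and 1.87 in homozygous-round WT, which did not. Mean Prox1 was 62.6 CPM in 1b+/-, 53.5 in heterozygous-round WT, 51.5 in 1b-/- and 14.9 in homozygous-round WT. Heterozygous-round WT overlapped both mutant groups, which did not overlap each other, and homozygous-round WT overlapped no other group. C1ql3 was 107 CPM in heterozygous-round WT, 88.3 in 1b+/-, 54.6 in 1b-/- and 18.7 in homozygous-round WT, and only the first and second of these overlapped. For Npnt (39.2, 34.5, 29.6 and 25.04 CPM in 1b-/-, 1b+/-, heterozygous-round WT and homozygous-round WT) every pair of neighbours overlapped. Trpc6 ran from 14.8 CPM in 1b+/- to 7.72 in homozygous-round WT, with 1b-/- (11.6) overlapping both WT groups. Calb1 ran from 163 CPM in heterozygous-round WT through 133 in homozygous-round WT and 125 in 1b+/- to 93.9 in 1b-/-, and Plk5 from 16.5 CPM in homozygous-round WT through 12.9 and 11.2 in heterozygous-round WT and 1b-/- to 9.09 in 1b+/-. The WT groups overlapped in both genes, and 1b-/- overlapped heterozygous-round WT for Plk5. For both genes the mutant group was below the WT group of its round. The 1b-/- mice were thus at 2.04 times the heterozygous-round WT mean for C1ql2, 1.33 times for Npnt and 1.28 times for Dsp. They were at 0.96 times for Prox1, 0.92 for Trpc6, 0.87 for Plk5, 0.58 for Calb1 and 0.51 for C1ql3. Rounds differ in read type and were not compared by a test.

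**Figure D1:**
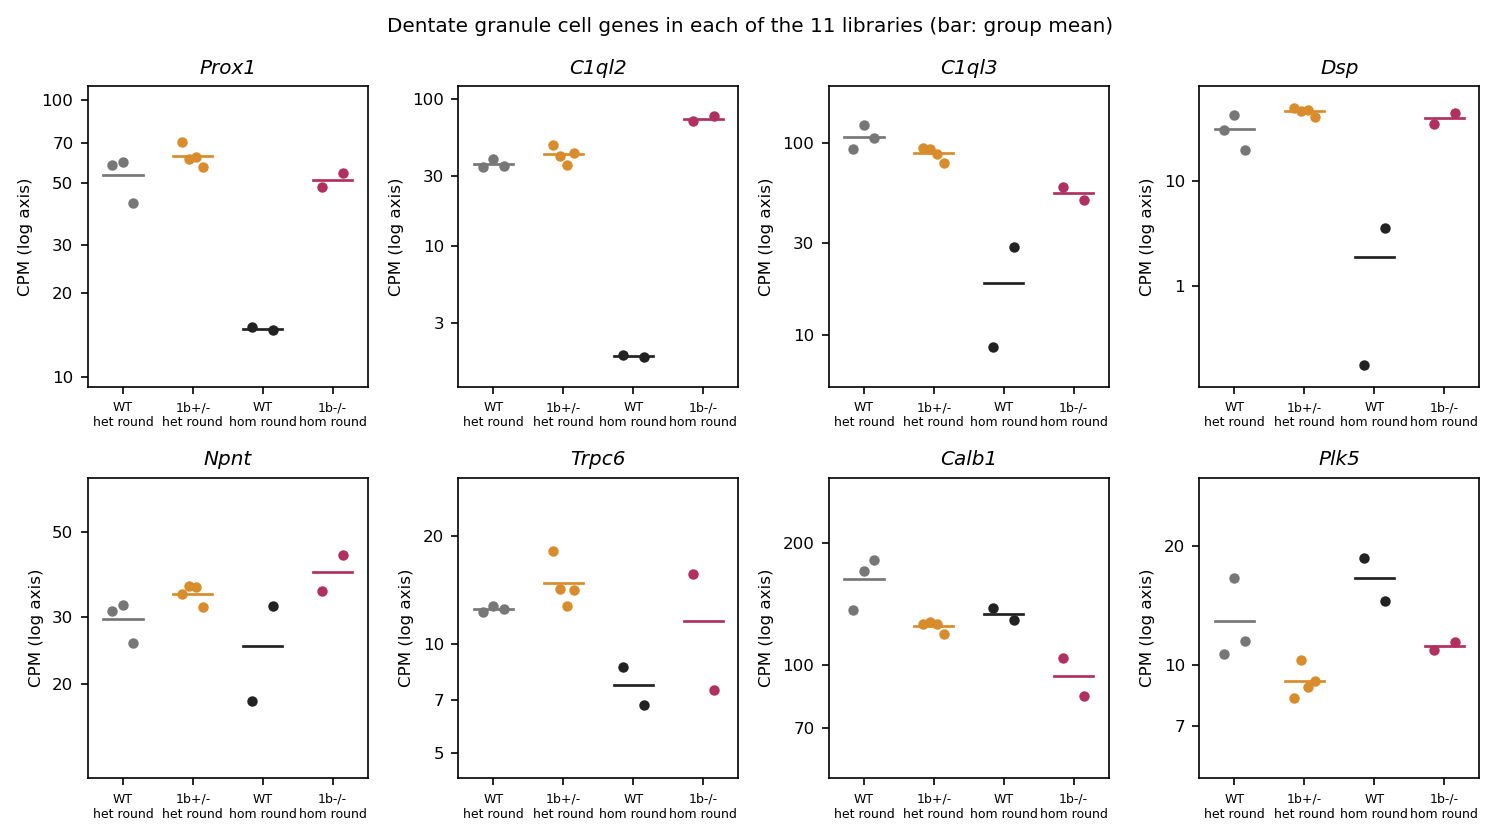
CPM of each gene (log axis, scaled over all 11 libraries) in WT and 1b+/- mice of the heterozygous round and WT and 1b-/- mice of the homozygous round, 1 point per library with a bar at the group mean. The WT libraries of the homozygous round are lowest for C1ql2 (mean 1.79 CPM), Dsp (1.87), Prox1 (14.9) and C1ql3 (18.7), while Calb1 and Plk5 are lower in each mutant group than in its own WT.

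For homozygous loss of 1b, the 2 1b-/- mice were compared with the 2 WT mice of their round, whose libraries held the high striatal sums. Prox1 and C1ql2 were higher in 1b-/- mice than in these WT mice, and the other 6 genes did not pass the test. Called genes were thus 2 of 8 higher, where 2.06% of all 14838 genes tested were called higher (edgeR quasi-likelihood test, adjusted p under 0.05). None of the 8 was called lower, where 1.52% of all genes were, although Calb1 was called lower by DESeq2, as were 6.54% of all genes. At an unadjusted p under 0.05, 4 of the 8 were higher, where 13.6% of all genes were, and 2 (Calb1 and Plk5) were lower, where 12.8% were. In 5 of the 8 genes both 1b-/- libraries lay above both WT libraries, which held for 29.5% of all genes, and in 2 both lay below, which held for 30.2%. The median log2 fold change of the 8 was 1.11, and that of all genes -0.00. A permutation of 2 against 2 libraries cannot go below p = 0.33, so no exact test of a single gene could pass here.

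C1ql2 was at 1.85 and 1.78 CPM in WT (41 and 38 counts) and at 71.7 and 79.0 CPM in 1b-/- mice. Its log2 fold change was 5.37 ± 0.15 SE (adjusted p = 0.00298), a fold of 41.4, and its p was the smallest of all 14838 genes. Prox1 was at 15.4 and 14.9 CPM in WT and at 49.2 and 56.1 CPM in 1b-/- mice, a log2 fold change of 1.79 ± 0.14 (adjusted p = 0.0191). Both genes had close values within each group and no overlap between groups. Both calls were lost when WT replicate 1, the library with the higher striatal sum, was left out (adjusted p = 0.0505 for C1ql2 and 0.101 for Prox1), a fit in which no gene was called, while their log2 fold changes stayed at 5.41 and 1.82.

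The remaining genes with higher values in 1b-/- mice differed between the 2 WT libraries. Dsp had 4 and 77 counts in WT replicates 1 and 2, or 0.18 and 3.60 CPM, and 34.5 and 45.3 CPM in 1b-/- mice. The log2 fold change was 4.40 ± 1.004 (adjusted p = 0.0774), and the likelihood ratio test and DESeq2 called it (adjusted p = 0.00385 and 0.0431). Without WT replicate 2 the log2 fold change of Dsp was 7.75 (adjusted p = 0.0377), and without WT replicate 1 it was 3.47. C1ql3 was at 8.81 and 29.2 CPM in WT and at 59.8 and 51.7 CPM in 1b-/- mice (a log2 fold change of 1.56 ± 0.53, adjusted p = 0.152), and it was 2.66 without WT replicate 2 (adjusted p = 0.0402) and 0.94 without WT replicate 1 (adjusted p = 0.113). The likelihood ratio test and DESeq2 called C1ql3 too (adjusted p = 0.0435 and 0.00885). Npnt was at 18.4 and 32.5 CPM in WT and at 35.5 and 44.7 CPM in 1b-/- mice (0.66 ± 0.30, adjusted p = 0.232), and the log2 fold change was 0.31 without WT replicate 1 and 1.13 without WT replicate 2. For these 3 genes WT replicate 1 was the lower of the pair. Trpc6 was the 1 gene whose groups overlapped, with 8.81 and 6.88 CPM in WT and 15.9 and 7.68 CPM in the male and the female 1b-/- mouse (0.59 ± 0.38, adjusted p = 0.375). With sex in the model, the log2 fold change of Trpc6 was -0.031.

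Calb1 and Plk5 went the other way without passing the test. Calb1 was at 140 and 131 CPM in WT and at 105 and 86.5 CPM in 1b-/- mice (a log2 fold change of -0.50 ± 0.14, adjusted p = 0.111). Plk5 was at 18.9 and 14.7 CPM in WT and at 11.1 and 11.7 CPM in 1b-/- mice (-0.56 ± 0.19, adjusted p = 0.152). In both genes the groups did not overlap, and leaving out any 1 library kept the sign.

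**Figure D2:**
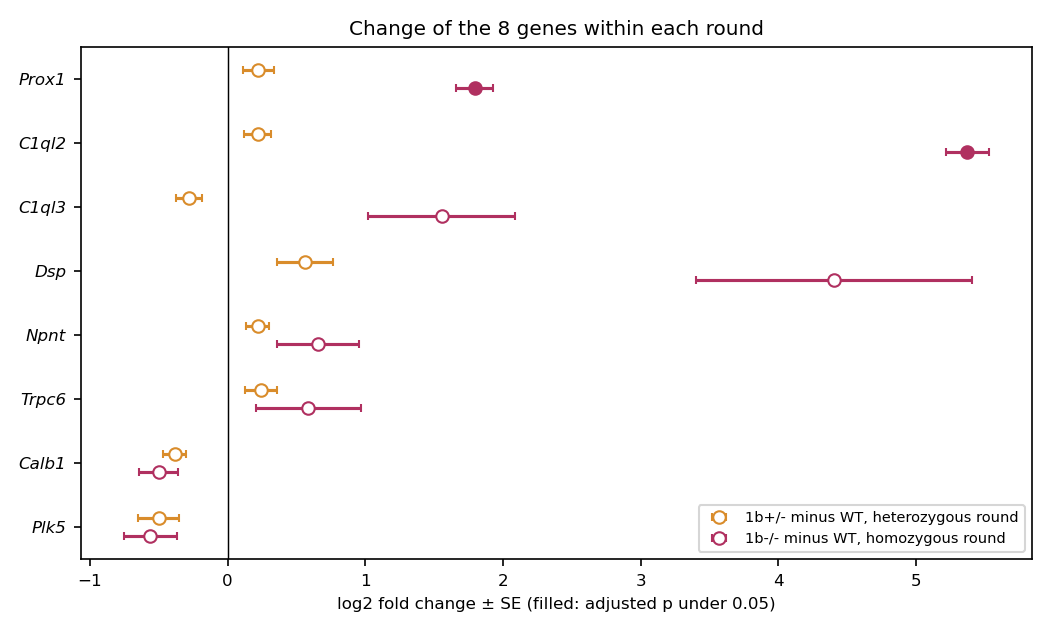
Log2 fold change of each gene with its SE, for 1b+/- minus WT (4 against 3 mice) and 1b-/- minus WT (2 against 2 mice), with filled points at an adjusted p under 0.05. C1ql2 (5.37) and Prox1 (1.79) in 1b-/- mice are the filled points, and Calb1 and Plk5 lie below 0 in both comparisons.

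To ask whether loss of 1 allele had an effect, the 4 1b+/- mice were compared with the 3 WT mice of their round. None of the 8 genes was called, and 0% of all 14630 genes were (edgeR quasi-likelihood test). At an unadjusted p under 0.05, 3 of the 8 were higher (C1ql2, Dsp and Npnt), where 5.32% of all genes were, and 3 were lower (C1ql3, Calb1 and Plk5), where 5.95% were. Trpc6 was the 1 gene with every 1b+/- library above every WT library, which held for 4.69% of all genes, though its highest WT and lowest 1b+/- library both rounded to 12.4 CPM. Calb1 and Plk5 had every 1b+/- library below every WT library, which held for 6.25%. The likelihood ratio test and DESeq2 each called 1 of the 8, which was Calb1, lower in 1b+/- mice, where they called 1.07% and 1.32% of all genes lower.

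Calb1 was at 133, 166 and 176 CPM in WT mice and at 123, 124, 123 and 116 CPM in 1b+/- mice. The mutant libraries lay close together and below all WT libraries, with a log2 fold change of -0.38 ± 0.08 (adjusted p = 0.157), and the exact two-sided permutation test gave p = 0.029, the smallest that 4 against 3 libraries allow. WT replicate 1, the lowest WT library for Calb1, had a summed level of 6 thalamic marker genes of 482 CPM. That sum was 122 and 95.1 CPM in WT replicates 2 and 3 and 124 to 344 CPM in 1b+/- libraries. Without WT replicate 1 the log2 fold change of Calb1 was -0.50 (adjusted p = 0.00243), in a fit that called 421 genes. It was -0.30 without WT replicate 3 (adjusted p = 0.483), and Calb1 was not called in 6 of the 7 fits that left out 1 library. Plk5 was at 10.3, 16.1 and 11.2 CPM in WT mice and at 8.03, 9.98, 8.54 and 8.86 CPM in 1b+/- mice (-0.50 ± 0.15, adjusted p = 0.274, exact permutation p = 0.029). The lowest WT and the highest 1b+/- libraries were close, at 10.3 and 9.98 CPM, and without WT replicate 2 the log2 fold change was -0.27. Calb1 and Plk5 were the 2 genes lower in the mutants of both rounds. The striatal marker sum was also lower in the mutants of both rounds, and its part in these changes was not tested.

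The C1q-like pair took opposite signs in 1b+/- mice. C1ql3 was at 90.5, 120 and 103 CPM in WT mice and at 91.8, 90.8, 84.8 and 76.5 CPM in 1b+/- mice (-0.28 ± 0.10, adjusted p = 0.329). C1ql2 was at 33.8, 37.9 and 33.8 CPM in WT mice and at 47.1, 40.1, 34.4 and 42.1 CPM in 1b+/- mice (0.22 ± 0.10, adjusted p = 0.441). WT replicate 1 lay within the 1b+/- range of C1ql3, and 1b+/- replicate 3 within the WT range of C1ql2, so the groups overlapped in both. The log2 fold change of C1ql3 was -0.16 without WT replicate 2, and that of C1ql2 was 0.14 without 1b+/- replicate 1.

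Dsp was at 29.2, 41.0 and 19.1 CPM in WT mice and at 47.9, 44.2, 45.4 and 38.6 CPM in 1b+/- mice (0.56 ± 0.20, adjusted p = 0.349). Prox1 was at 57.0, 57.9 and 41.5 CPM in WT mice and at 68.4, 59.4, 60.5 and 55.7 CPM in 1b+/- mice (0.22 ± 0.11, adjusted p = 0.496). Npnt was at 30.3, 31.3 and 24.8 CPM in WT mice and at 33.4, 35.1, 34.9 and 30.9 CPM in 1b+/- mice (0.22 ± 0.08, adjusted p = 0.369). WT replicate 3 was the lowest of all 7 libraries for these 3 genes and the highest for Calb1. Without it the log2 fold changes were 0.33 for Dsp, 0.086 for Prox1 and 0.12 for Npnt, and without WT replicate 2 that of Dsp was 0.86. Trpc6 was at 11.9, 12.4 and 12.2 CPM in WT mice and at 17.6, 13.8, 12.4 and 13.8 CPM in 1b+/- mice (0.24 ± 0.11, adjusted p = 0.460), with a log2 fold change of 0.13 without 1b+/- replicate 1.

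The difference between the 1b-/- and the 1b+/- changes was tested over all 11 libraries. It was called higher for 4 of the 8 genes, where 14.3% of all 14906 genes were called higher. The log2 fold change in 1b-/- mice exceeded that in 1b+/- mice by 5.15 ± 0.19 for C1ql2 (adjusted p = 6.77e-07), 3.84 ± 0.72 for Dsp (adjusted p = 0.00400), 1.83 ± 0.46 for C1ql3 (adjusted p = 0.0157) and 1.56 ± 0.19 for Prox1 (adjusted p = 0.000532). These are the genes with the lowest homozygous-round WT levels relative to the other WT mice, a ratio that is itself part of the difference tested. The C1ql3 call was lost with sex in the model (adjusted p = 0.0508). Without WT replicate 2 of the homozygous round the difference was 7.17 for Dsp and 2.93 for C1ql3, and without WT replicate 1 of that round it was 2.89 and 1.20. The difference was -0.12 ± 0.16 for Calb1, -0.07 ± 0.26 for Plk5, 0.34 ± 0.36 for Trpc6 and 0.43 ± 0.27 for Npnt, and none of these passed the test, which does not show that the mutants responded alike. Npnt was called without WT replicate 2 of the homozygous round (0.89, adjusted p = 0.00872) and Trpc6 without 1b-/- replicate 2 (0.77, adjusted p = 0.0438).

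A further list of 15 granule cell genes gave the same kind of mixture. In 1b-/- mice 13 of the 15 had positive and 2 negative log2 fold changes, with a median of 0.58. The quasi-likelihood test called 1 higher, where it called 2.06% of all genes higher. The likelihood ratio test called 3 higher and DESeq2 6, where these tests called 6.62% and 7.91% of all genes higher. The gene called higher by the quasi-likelihood test was Lct, lactase (a log2 fold change of 5.15 ± 0.80 SE, adjusted p = 0.0412). Lct was at 1.14 ± 1.23 SD CPM in the 2 WT and 40.3 ± 15.8 SD CPM in the 2 1b-/- mice, so its WT libraries were low and differed. Its log2 fold change ran from 4.33 to 7.20 when single libraries were left out, and it was not called without WT replicate 1. Tdo2, tryptophan dioxygenase, was at 0.73 and 4.11 CPM (2.48 ± 0.47, adjusted p = 0.0587), and Maml2, a Notch coactivator, at 12.02 and 20.7 CPM (0.78 ± 0.18, adjusted p = 0.0819). Sema5b, a semaphorin, was at 36.7 CPM in WT and 17.5 CPM in 1b-/- mice (-1.07 ± 0.29, adjusted p = 0.104), and the likelihood ratio test and DESeq2 called it lower (adjusted p = 0.0203 and 0.00965), as they did 5.7% and 6.54% of all genes. In 1b+/- mice 10 were positive and 5 negative, with a median of 0.059, and none was called by the quasi-likelihood test (3 higher and 1 lower at an unadjusted p under 0.05, and 0 by the likelihood ratio test or DESeq2). The smallest p-values there belonged to Dock10 (a log2 fold change of 0.22 ± 0.07, adjusted p = 0.283), Smad3 (-0.22 ± 0.08, adjusted p = 0.3333), Tdo2 (0.41 ± 0.16, adjusted p = 0.374) and Glis3 (0.31 ± 0.13, adjusted p = 0.396). The difference between the mutants was called higher for 5 and lower for 2 of the 15, where 14.3% and 13% of all genes were. It was largest for Lct (4.79) and Tdo2 (2.06), and Sema5b (-1.23) and Dock10 (-0.56) were called in the other direction.

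Lists of other cell types were compared in the same 1b-/- and WT libraries. Of all 14838 genes tested there, the quasi-likelihood test called 2.06% higher and 1.52% lower. Of 8 CA3 genes 4 rose in 1b-/- mice (Iyd by 4.10, Homer3, Grik4 and Cpne4) and Coch, cochlin, fell by 3.74 on the log2 scale. Of 8 CA1 genes 2 rose, Fibcd1 by 3.46 and Dcn by 2.63 on the log2 scale. None of the 6 mossy cell genes was called, nor any of the 7 immature neuron, 6 thalamic or 6 choroid plexus genes by the quasi-likelihood test (unadjusted p under 0.05 for 1, 2, 2 and 0 of them, where 13.6% of all genes were higher and 12.8% lower at that p). The likelihood ratio test and DESeq2 each called 1 mossy cell gene lower and 1 immature neuron gene higher. Each called 6 CA3 genes higher and 1 lower, and they called 3 and 4 CA1 genes higher. Each also called 3 GABAergic interneuron and 4 immediate early genes lower. Of all genes they called 6.62% and 7.91% higher and 5.7% and 6.54% lower. By the quasi-likelihood test, Gad2 fell by 1.03 among 8 GABAergic interneuron genes and Arc by 1.58 among 7 immediate early genes. In each of these 2 lists 6 genes had negative log2 fold changes. Without WT replicate 1 none of these genes was called, and without WT replicate 2 Iyd, Homer3, Grik4, Arc and Gad2 were not. The Gad2 call was also lost without 1b-/- replicate 1 (adjusted p = 0.0830) and with sex in the model (adjusted p = 0.0767). Leaving out 1 library leaves 1 mouse in its group, so a lost call does not by itself set these genes apart. The log2 fold changes kept their sign when any 1 library was left out. Genes of the CA1 and CA3 lists thus rose beside those of granule cells, against the same WT libraries.

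**Figure D3:**
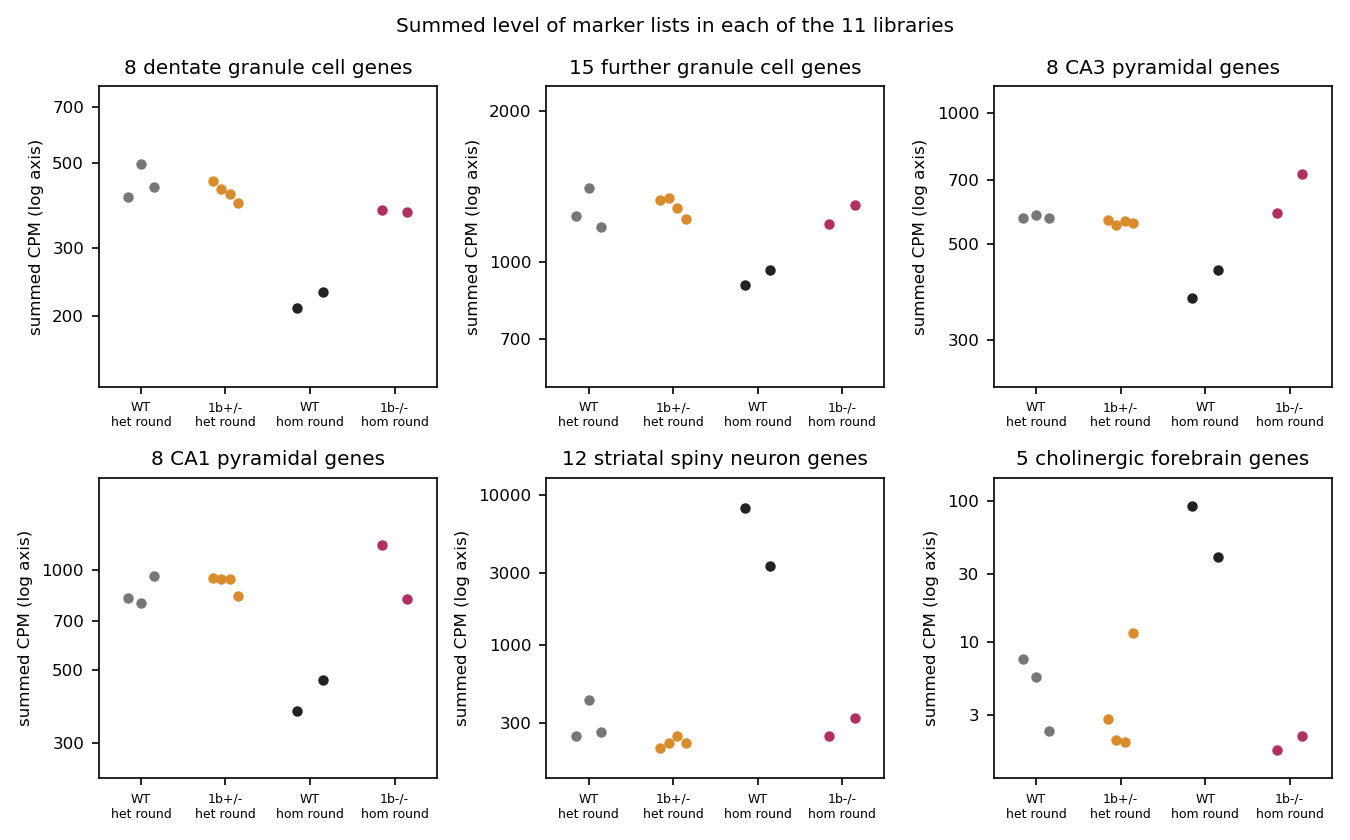
Summed CPM (log axis) of 6 marker lists in each library, 1 point per library, in the same 4 groups. The homozygous-round WT libraries are lowest for the dentate, CA3 and CA1 lists and highest for the striatal (8115 and 3356 CPM) and cholinergic (91.5 and 40.0 CPM) lists.

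Ratios of 2 genes within a library do not depend on library scaling. They were chosen after the values were seen and are given without a test, as ratios of counts not corrected for gene length. Calb1 over Prox1 was 2.33, 2.87 and 4.26 in WT and 1.79, 2.09, 2.04 and 2.09 in 1b+/- mice of the heterozygous round, and 9.12 and 8.75 in WT and 2.14 and 1.54 in 1b-/- mice of the homozygous round. Every mutant library was below every WT library, and the 2 mutant groups shared a range, whereas both homozygous-round WT ratios were above those of all other libraries. C1ql2 over C1ql3 was 0.37, 0.32 and 0.33 in WT and 0.51, 0.44, 0.41 and 0.55 in 1b+/- mice, and 0.21 and 0.06 in WT and 1.20 and 1.53 in 1b-/- mice. For this pair every mutant library was above every WT library, and the groups did not overlap. The share of other gene pairs that separate in this way was not computed, so the separation does not set these pairs apart. Of single genes, 29.5% had both 1b-/- libraries above both WT libraries of their round and 30.2% had both below. Dsp over Prox1 was 0.69 to 0.75 in 1b+/- and 0.70 and 0.81 in 1b-/- mice, against 0.46 to 0.71 in heterozygous-round WT and 0.01 and 0.24 in homozygous-round WT.

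**Figure D4:**
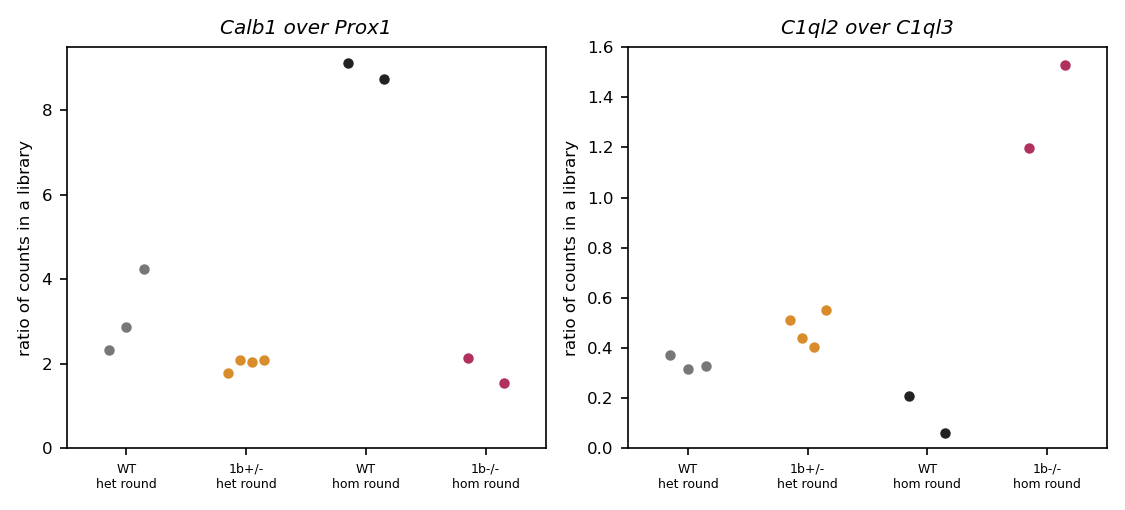
Ratio of counts within a library for Calb1 over Prox1 and C1ql2 over C1ql3 (linear axes from 0), 1 point per library in the 4 groups. For Calb1 over Prox1 all mutant libraries lie at or under 2.14 and all WT libraries at or over 2.33, and for C1ql2 over C1ql3 mutant libraries lie at or over 0.41 and WT libraries at or under 0.37. The pairs were chosen after the values were seen, and the share of other pairs that separate was not computed.

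For each gene the nearest patterns among 13037 genes were found by the root mean square distance of centred log2 CPM over the 11 libraries, which share the rounds and tissue differences described above. C1ql2 was near Spink8 (0.23 log2 units), Cabp7 (0.45) and Iyd (0.56), and Dsp near Lct (0.33), Slc9a4 (0.84) and Lhx9 (0.89). Prox1 was nearest to Rnf182 (0.19), Il1r1 (0.19) and Zbtb18 (0.20), and C1ql3 to Fam19a1 (0.13), Gpc4 (0.22) and Pcdh19 (0.27). Calb1 lay nearest to Bhlhb9, Nanos1 and Tshz1 (0.12 each) and Plk5 to Cdo1 (0.13), Gm2061 and Stk32c (0.18 each), genes with negative log2 fold changes in both mutants. Trpc6 lay nearest to AA388235, Cecr2 (0.19 each) and Fn1 (0.20), and Npnt to Herc3, Tigd5 (0.14 each) and Syt13 (0.15). None of the 8 had another of the 8 among its 3 nearest genes. Among the 8 themselves the closest pair was Calb1 and Plk5 (0.38 log2 units), though many other genes were nearer to either. That distance was no smaller than the SD of either gene over the libraries (0.30 and 0.37). Dsp and C1ql2 were farther apart (0.97) but varied more (SD 2.34 and 1.90), and C1ql2 ranked 7 among the genes near Dsp.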

How the data were processed

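The values deposited by the authors are unnormalized counts for each gene symbol. Stranded mRNA reads were aligned with STAR 2.7.2 (mm9) and counted by featureCounts. The annotation and strand setting of the counting are not given in the sources used here. Table columns were matched to samples by name, since the table number in the labels is swapped between the rounds. No column was unused. A gene can carry different symbols in the 2 tables (Drd1 and Drd1a). Each table holds 27 symbols turned into dates, with 0.300% to 0.372% of counts, left out where tables were joined.

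The fits used edgeR 4.0.16 under R 4.3.3 (TMM factors, at least 1 CPM in at least 1 library, glmQLFTest, Benjamini-Hochberg adjustment, threshold 0.05), fitted on all genes. SEs are the absolute log2 fold change over the square root of F. Comparisons use CPM scaled within a round, and levels across groups use CPM scaled over all 11 libraries. RPKM uses union exon lengths of GENCODE in mm9. Permutation tests used log2(CPM + 0.001). Replicate pairs differed beyond counting noise, so each library counted as 1 sample. P-values of the fits set a group difference against the spread between these libraries, estimated with information shared across genes.

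The members and the 12 marker lists were chosen with earlier results of these data known, and 2 listed genes are not reported here. Named genes were the members, Scn1a, the 4 further granule cell genes with the smallest p in each comparison, the 2 of each other list in the homozygous one, and the 3 nearest genes. Other genes are named where a count of 5 or fewer is given. Alternatives were DESeq2 1.42.0, the likelihood ratio test, upper-quartile or RLE factors, the filterByExpr filter, no filter at all, a sex covariate, a joint fit of the 11 libraries and leaving out single libraries. The code of the fits was tested on simulated data.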

Additional observations from a re-analysis of the deposited data

Results flagged for a closer look

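Of the genes named here by rule, 9 had changes that differed between the mutant groups by the test of the difference itself (log2 fold change in 1b-/- minus that in 1b+/- mice, over all 11 libraries). C1ql2 differed by 5.15 ± 0.19 SE, Dsp by 3.84 ± 0.72, C1ql3 by 1.83 ± 0.46 and Prox1 by 1.56 ± 0.19, each higher in 1b-/- mice. In each of these 4 genes the homozygous-round WT mean was 0.049 to 0.28 times that of the heterozygous-round WT mice, while the 1b-/- mean was 0.51 to 2.04 times that level. Genotype of the mutant, sequencing round, read type, sex of the WT mice and striatal marker level of the WT libraries change together in this contrast. They cannot be told apart. Scn1a, the targeted gene, differed by -2.36 ± 0.32, lower in 1b-/- mice. Of the further granule cell genes, Lct differed by 4.79 and Tdo2 by 2.06, higher in 1b-/- mice, and Sema5b by -1.23 and Dock10 by -0.56. Within the 1b+/- group, the only one of 4 or more libraries, no library of any of the 8 genes stood apart from the others by Dixon's criterion.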

How the results depend on the processing

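Scaling (RLE, upper-quartile) and filterByExpr changed no call on the 8 genes. In 1b+/- mice the quasi-likelihood test called none of the 8, the likelihood ratio test and DESeq2 1 each (of 191 and 245 genes in all), and leaving out single libraries gave 0 to 1 (0 to 421 in all, the highest without WT replicate 1). Without a filter 44 genes were called. In 1b-/- mice 2 of the 8 were called against 4 by the likelihood ratio test (1829 in all), 5 by DESeq2 (2144) and 7 with all 11 libraries in 1 fit (5537), and 1029 genes were called without a filter against 531. Leaving out single libraries gave 0 to 4 of the 8 and 0 to 693 genes, with 0 without WT replicate 1 and 4 of the 8 without WT replicate 2 (192 genes). In the test of the difference 4 of the 8 were called, 3 with sex as a covariate and 4 to 5 without single libraries. The sign of Trpc6 in 1b-/- mice turned with sex as a covariate (-0.031) and without 1b-/- replicate 1 (-0.030, range -0.030 to 1.02), and its difference between mutants turned to -0.075 and -0.29 (range -0.29 to 0.77). The difference of Plk5 ranged from -0.30 to 0.12 and that of Calb1 from -0.28 to 0.019 without single libraries, with positive values for Plk5 without WT replicates 1 (0.05) or 3 (0.0082) of the heterozygous round or WT replicate 1 of the homozygous round (0.12), and for Calb1 without 1b-/- replicate 2 (0.019). The causes were not tested. No paired analysis was possible because the labels give no replicate numbers shared between groups. With 2 mice a group, sex partly follows genotype in the homozygous round. Low counts limit Dsp (4 and 77 counts) and C1ql2 (41 and 38 counts) in the homozygous-round WT libraries. Of the further granule cell genes, Lct (mean 1.14 CPM) and Tdo2 (mean 0.73 CPM) were also low there.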
